A study of Mus musculus with 9 samples.

Results

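The data described here are the transcriptomes of KP-GFP tumour spheroids grown with no other cell type, 3 of the 9 samples of the study, chosen by the label that says the tumour cells were alone. All 12339 genes of the table of values were ranked within these 3 libraries. The study set such spheroids beside spheroids to which lung resident macrophages or bone-marrow monocytes had been added, in order to ask how each macrophage population acts on tumour cells. The co-cultures are not described here.

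KP-GFP cells are a mouse lung tumour line of C57BL/6 origin that carries green fluorescent protein. The labels give no allele. Per the labels, each spheroid was started from 2500 cells and grown for 7 days. The culture text names ultra-low attachment wells, and the design text names a 3D matrigel culture. For the group, 32 spheroids were pooled and dissociated with TrypLE for 20 min at 37 °C, and cells positive for GFP were collected by flow sorting. Between 20000 and 170000 cells were collected per sample, and 1 ng of their RNA went into SMART-Seq v4 libraries. No cells were added to this group, and the dissociation and sort were those of every group. The labels do not say that the 3 replicates are separate cultures, so the spread given below may be technical. The cells are 1 line, so nothing here measures how tumours differ from each other.

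Lung adenocarcinoma cells arise from the distal lung epithelium, where alveolar type 2 cells make surfactant and depend on the transcription factor Nkx2-1. When Nkx2-1 is low, mouse lung tumours can take on gastric and intestinal features, with Hnf4a and mucosal genes such as Ctse and Krt20. Tumour cells also release chemokines, growth factors and matrix proteins, and display receptors through which they answer signals from other cells.

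A level is given as CPM per kb, which is the deposited value (reads with an offset of 0.5, scaled to library size) divided by the exon length of the gene. Where 3 values follow each other, they are replicates 1, 2 and 3 in that order. A single value or a range over genes is of the means of the 3 libraries. Errors are SD with n = 3. A gene with 0 reads in a library is listed at the offset alone, as Muc6 and Ager were in replicate 2 and Creb3l3 in replicate 3. The percentile places a gene among the 12255 genes with an exon length, so a gene above 90 is in the top 10%, which began at 37.1 CPM per kb. The lowest 25% ended at 1.98 CPM per kb, and the median gene was at 6.74 CPM per kb. No test was made, since 1 group is described. A gene without a row in the table is named with no level. The table holds no gene with fewer than 91 reads over the 9 libraries of the study. Rows may be missing for other reasons too, so a missing row is not read as a low level.

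The libraries held 21341370, 21386212 and 32771448 reads in the genes of the table. A floor of 3 reads, without the offset of 0.5 that the values include, corresponded to 0.134, 0.136 and 0.0901 CPM. It covers counting error only. Replicate 2 stood apart from the other libraries. The correlation of log2 values across the 9932 genes at a mean of at least 5 CPM was 0.985 between replicates 1 and 3, 0.960 between 1 and 2, and 0.969 between 2 and 3 (across genes, which are not independent replicates). Replicate 2 also had 150 genes with 0 reads, against 31 and 8. Ribosomal protein genes, picked by how their symbols begin, took 1.11% of its reads, against 0.801% and 0.773% in the others. Such a rule can take in other genes with similar symbols. The 8 mitochondrially encoded genes with a row took 0.667%, 0.646% and 0.523% of reads. Several results that rest on replicate 2 are therefore given with and without it.

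Genes for secreted proteins, simple-epithelium keratins and the cytoskeleton and immediate early genes stood first per length in the sorted cells. The 10 highest genes held 8.94% ± 0.714 of the summed values, the 100 highest 21.5% ± 1.05 and the 1000 highest 50.6% ± 0.603. Clusterin, encoded by Clu (chr14:65968483-65981547), a secreted chaperone, was highest per length at 8413, 6069 and 7397 CPM per kb. Ccn1 (chr3:145646976-145649981), a matricellular protein, followed at 6001, 6891 and 7792 CPM per kb. The libraries of these genes overlapped, so their order is not separated beyond the spread.

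Below them came Krt18 (chr15:102028180-102032027), a keratin of simple epithelia, at 3172, 3374 and 3465 CPM per kb. Spp1 (chr5:104435118-104441050), the secreted phosphoprotein osteopontin, had 3079, 2269.7 and 3341 CPM per kb, and 11.6% of the 50-base stretches of its transcripts also occur in a predicted gene. The next genes by mean CPM per kb were the cytoskeletal gene Actb (2803), Krt8 (2375), Fos (2105), Junb (1870.4), Ier2 (1737) and Tmsb4x (1327). Atf3, Egr1, Jun, Btg2, Thbs1, Lars2, Dusp5, Ier3, Krt19 and Ccn2 completed the first 20, between 767 and 1149 CPM per kb. Of these, Thbs1 encodes a matrix glycoprotein, Lars2 a mitochondrial tRNA synthetase and Dusp5 a phosphatase that acts on ERK. Reads per gene do not tell which part of Lars2 they came from. Whether its level is that of the synthetase transcript was not tested. To reach these 20, 2 mitochondrially encoded genes and 1 predicted gene were passed over. Ranked by CPM with no length correction, the first 10 were Clu, Ccn1, Lars2, Actb, Thbs1, Fos, Krt18, Spp1, Egr1 and Krt8, from 25066 down to 4649.6 CPM.

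**Figure D1:**
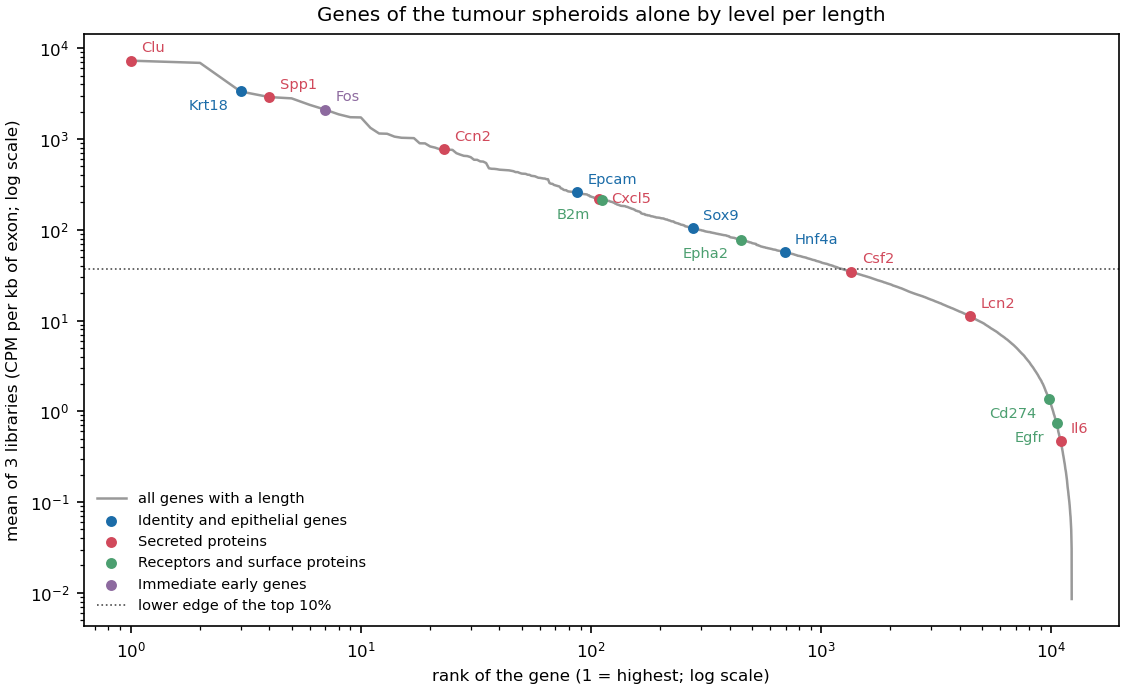
Mean level of each gene with an exon length over the 3 libraries (vertical axis, CPM per kb, log scale) against its rank (horizontal axis, log scale), with named genes marked by class and the lower edge of the top 10% dotted. Clu leads at 7293 CPM per kb and Krt18, Spp1 and Fos follow within the first 10 ranks, while Egfr, Cd274 and Il6 lie at the foot of the curve below 2 CPM per kb.

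Of the 43 gene lists used here, which hold 1308 genes with 898 of them in the table, 205 genes were in the top 10%, against 10.0% of all genes with a length. The lists were chosen for roles in epithelial and tumour cells with earlier results of these data known, so nothing is read from that count. The lowest 25% held 25.0% of all genes, to which the counts below can be set.

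Immediate early and heat shock genes stood very high. Of 30 members, all in the table, 23 were in the top 10%, and the median percentile was 98.9, where the median over all genes is 50. Fos, a subunit of AP-1, was at 2511, 1501 and 2302 CPM per kb, Junb at 2102, 1462 and 2047 and Ier2 at 2067, 1184 and 1961. Replicate 2 was the lowest of the 3 for each of these genes. Atf3 (1179, 1017 and 1252 CPM per kb), Egr1 (916, 1008 and 1260.2 CPM per kb) and Jun (1118, 861 and 1117 CPM per kb) were next. These genes are known to respond within minutes to handling, and the cells were held at 37 °C with enzyme for 20 min before sorting. Levels before that step were not measured, for these genes or for any other described here. What the spheroids held and what the step may have added therefore cannot be told apart.

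Among the genes of the table, transcription factors of lineage showed an epithelial set with foregut, gastric and hepatic members. Nkx2-1, Sox2, Sox17, Elf5, Hopx and Spdef of the lung and foregut list were not among the genes of the table, and neither were Cdx1, Cdx2, Pdx1, Isx and Barx1 of the gastric and intestinal list. Sox9 (chr11:112782224-112787760), a factor of distal lung and other endoderm progenitors, was at 93.8, 101 and 118 CPM per kb. Foxa1 (chr12:57540628-57546916), a pioneer factor of endoderm, was at 103, 76.2 and 98.9 CPM per kb. Elf3, an epithelial ETS factor, was at 135, 85 and 121 CPM per kb, and its libraries overlapped those of Sox9 and Foxa1.

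Hnf4a (chr2:163506808-163572910), a nuclear receptor of liver, gut and kidney epithelium, was at 61.6, 41.4 and 67.6 CPM per kb. Its percentile was 94.3, and 95.5 without replicate 2. Replicate 2 was the lowest library for this gene.

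Other factors of the gut and liver list varied widely in level. Hes1, a target of Notch, led it at 446, 333 and 591 CPM per kb, and Foxq1 was at 64.1, 45.5 and 55.4 CPM per kb. Onecut2 (14.1 ± 0.768 CPM per kb) and Mecom (9.93 ± 1.63) lay above the median gene. Nr1h4, Hhex and Vdr lay between 4.73 and 5.45 CPM per kb. Ppargc1a (1.42 ± 0.782 CPM per kb), Nr1i2 (1.11 ± 0.186) and Creb3l3 (0.201 ± 0.223) lay in the lowest 25%. In all, 15 of 28 members were in the table, 3 of them in the top 10%, or 4 without replicate 2. The median percentile was 44.5, and 49.5 without replicate 2.

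Of the 39 lung and foregut factors, 33 were in the table and 8 of these were in the top 10%. Cebpb was the highest at 214, 229 and 192 CPM per kb, and Nr2f6, Id2, Ehf and Klf4 lay between 44.7 and 58.8 CPM per kb beside Elf3, Sox9 and Foxa1. Klf5, Foxp4, Runx1 and Tfcp2l1 followed, from 30.8 down to 20.4 CPM per kb. Gata6, an endoderm factor of lung and stomach, was at 22.4, 16.3 and 21.1 CPM per kb. Foxa2, the partner of Nkx2-1 in the lung, was at 16.9, 9.24 and 12.2 CPM per kb, below every library of Foxa1. Rarg, Tead2, Etv4, Cebpd, Grhl2, Foxp1 and Foxa3 lay between 6.84 and 18.5 CPM per kb. Etv5, Creb3l1, Ovol1, Cebpa and Grhl1 lay between 3.37 and 5.51 CPM per kb. The lowest 25% held Tead1, Runx2, Ovol2, Gata4, Grhl3 and Foxp2, at 0.1 to 1.86 CPM per kb.

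**Figure D2:**
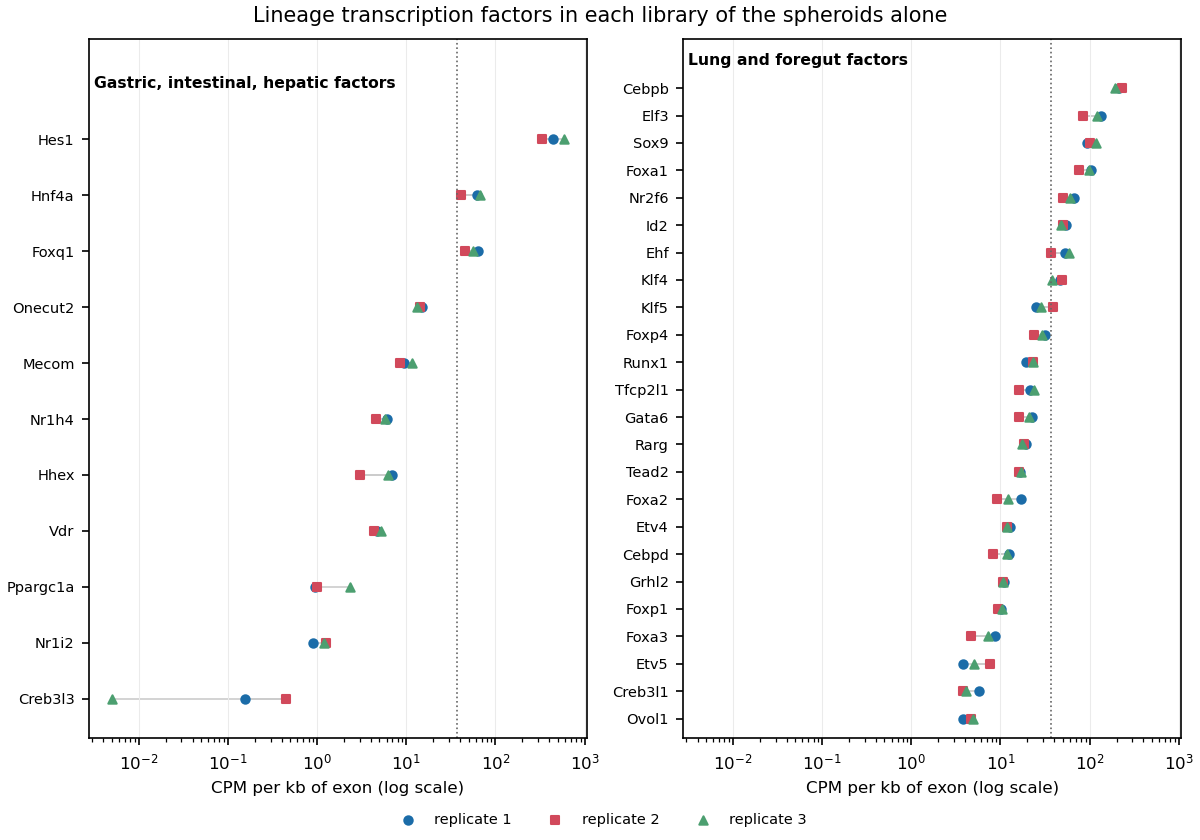
Each library's level of lineage transcription factors (horizontal axis, CPM per kb of exon, log scale), with factors of the gut and liver list on the left, high members of the lung and foregut list on the right, and the lower edge of the top 10% dotted. Hes1, Hnf4a and Foxq1 lie right of that edge by their means, and replicate 2 (squares) is the leftmost library for Hes1, Hnf4a and Foxq1.

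Several markers that define mature lung cell types were not among the genes of the table or were low, while others shared with many epithelia were high. Of 22 alveolar type 2 markers, 12 were in the table with a median percentile of 66.9, and the surfactant genes Sftpc, Sftpa1 and Sftpb were not among them, nor were Napsa, Lamp3 and Slc34a2. Sftpd, the surfactant protein D gene, was at 19.4, 9.34 and 16 CPM per kb. The 2 members in the top 10% were Muc1 (735, 600.4 and 683 CPM per kb), a mucin of many epithelia, and Ctsh (55.5, 46.9 and 52.3 CPM per kb), a lysosomal protease. Both are also high outside type 2 cells. Lyz2 (5.17, 19.8 and 25.9 CPM per kb), Abca3 (16.2 ± 3.32 CPM per kb), Lpcat1 (14 ± 1.57), Fabp5 (10.9 ± 2.6), Etv5 (5.51 ± 1.98) and Dram1 (3.11 ± 0.759) came next. Cxcl15 (2.81 ± 0.84 CPM per kb), Cd74 (1.67 ± 0.616) and Chil1 (0.557 ± 0.509) were the lowest.

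Of 22 alveolar type 1 markers, 16 were in the table, with 4 in the top 10%, 6 in the lowest 25% and a median percentile of 46.4. The high members were Gprc5a (451 ± 12.2 CPM per kb), Krt7 (245 ± 19.9), Vegfa (75.2 ± 29.2) and Emp2 (51.4 ± 5.47), none of which is limited to type 1 cells. Aqp5 (16.1 ± 1.24 CPM per kb) and Cldn18 (14 ± 1.39) were lower, and Ager, the gene most used for type 1 cells, was at 0.261, 0.0106 and 0.232 CPM per kb. Pdpn, Hopx and Clic5 were not among the genes of the table.

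Among members with a row, markers of airway cell types had lower medians than the alveolar lists. The medians were at percentile 28.8 for club and secretory cells, 15.5 for ciliated cells and between these for basal cells. Members without a row are left out of each median, so the order depends on which genes the table holds. With a minimum mean of 1 CPM, the ciliated median lay above that of alveolar type 1 markers. Of 21 club and secretory markers 11 were in the table, without Scgb1a1, Scgb3a2 and Cyp2f2, and 1 was in the top 10%. That member, Por (61.3 ± 0.832 CPM per kb), encodes a reductase of most cells. It was followed by Aldh1a1 (21.5 ± 1.67 CPM per kb), Tff2 (18.8 ± 1.1), Hp (18.2 ± 11.5), Pigr (10.1 ± 5.25) and Muc5b (2.52 ± 0.619). Scgb3a1, Selenbp1, Ces1d, Gsta3 and Cbr2 were in the lowest 25%, at 0.237 to 1.79 CPM per kb.

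Of 16 ciliated cell markers, 5 were in the table, led by the tubulin gene Tubb4b (89 ± 10.4 CPM per kb), which shares 37.8% of its 50-base stretches with other genes. The ciliogenesis factor Foxj1 was at 8.89, 7.07 and 9.03 CPM per kb, while Tppp3, Cfap126 and Dnah5 had means below 1 CPM per kb. Of 15 basal cell markers 13 were in the table and 0 in the top 10%. Itga6 (30.8 ± 1.05 CPM per kb) and Icam1 (17.7 ± 2.95) led them, and Trp63 (0.721, 0.337 and 0.564 CPM per kb) and Krt5 (0.193, 0.629 and 0.144 CPM per kb), which define basal cells, were in the lowest 25%. Snai2, Ngfr, Dst and Aqp3 lay between 2.43 and 5.66 CPM per kb. Of 16 neuroendocrine markers 5 were in the table, without Calca and Chga. They were Insm1 (9.39 ± 0.813 CPM per kb), Ncam1 (6.87 ± 1.18), Scg2 (1.85 ± 1.14), Uchl1 (0.258 ± 0.0933) and Syp (0.136 ± 0.0439).

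Genes of gastric and intestinal mucosa had many members among the high genes. Of 57 members 39 were in the table, and 15 of these were in the top 10%, or 16 without replicate 2. Their median percentile was 70.8. Muc1 led with the tight junction claudin Cldn4 (762, 534 and 661 CPM per kb) and the pore-forming claudin Cldn2 (289, 199 and 247 CPM per kb). Mal2 (213 ± 14.9 CPM per kb), Tspan8 (169.9 ± 27.2) and Cldn7 (163 ± 12.3) were next. Ctse, the gastric protease cathepsin E, was at 153, 139.9 and 128 CPM per kb. The list is not exclusive to gut, since claudins and Muc1 are made by many epithelia.

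Among members more closely tied to gut and stomach, and singled out after their values were seen, Krt20 was at 139, 76.7 and 113 CPM per kb and Cym, a gastric protease of young mammals, at 127, 49.3 and 121 CPM per kb. Cdh17, the cadherin of intestinal epithelium, was at 48.1, 44.2 and 45.7 CPM per kb, and Vil1, the actin bundler of microvilli, at 43.9, 20.6 and 37.8 CPM per kb. Replicate 2 was lowest for Krt20, Cym, Cdh17 and Vil1. The stomach mucin genes Muc5ac (1.54, 1.35 and 0.988 CPM per kb) and Muc6 (0.317, 0.00242 and 0.069 CPM per kb) were in the lowest 25%. Further members tied to gut and stomach had rows and are not named here, so the named ones do not stand for the list. Tff1, Gkn1, Gkn2, Pgc, Muc2 and Fabp1 were not among the genes of the table.

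Hepatocyte genes were mixed. Of 39 members 24 were in the table, with 4 in the top 10%, 6 in the lowest 25% and a median percentile of 56.5. The high members were Gstm1 (393 ± 36.2 CPM per kb) and Gsta4 (229 ± 20.8), which encode glutathione transferases, Fn1 (248 ± 46.6) and Cyp3a13 (37.1 ± 6.24). Rbp4 (33.6 ± 7.14 CPM per kb) and Hp (25.5, 4.95 and 24.1 CPM per kb), for plasma carriers of retinol and haemoglobin, followed. Alb, Afp and Ahsg were not among the genes of the table, and Ttr was at 4.01, 1.16 and 5.56 CPM per kb. Gstm1 shares 18.9% of its 50-base stretches with related genes.

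Keratins of simple epithelium were high and most of the others were low. Beside Krt18, Krt8 was at 2517, 2104 and 2503 CPM per kb, though 26.9% of its 50-base stretches also occur in a pseudogene. Krt19 was at 874, 613 and 826 CPM per kb, Krt23 at 248, 248 and 293 and Krt7 at 265, 246 and 226. With Krt20 they made 6 of 16 keratins in the table in the top 10%. The stratified keratins Krt5, Krt14, Krt15, Krt17, Krt13 and Krt6a were all in the lowest 25% with Krt10, between 0.189 and 1.71 CPM per kb. Krt4 (8.15, 4.04 and 6.18 CPM per kb) and Krt16 (2.89, 4.56 and 5.83 CPM per kb), also of stratified epithelia, and Krt80 (2.73, 5.27 and 4.34 CPM per kb) lay between these sets. The median percentile of the list was 38.9.

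Junction genes were high as a group. Of 54 members 52 were in the table, 24 of these were in the top 10%, 3 were in the lowest 25%, and the median percentile was 84.9. Cdh1 (chr8:106603351-106670246), which encodes E-cadherin, was at 356, 342 and 384 CPM per kb. Epcam was at 301, 225 and 247 CPM per kb and Ctnnb1, the catenin bound to E-cadherin, at 171, 161 and 173 CPM per kb. Their percentiles were 99.5, 99.3 and 98.8. By mean, the order of the list was Cldn4, Cdh1, Epcam, Cldn2, Ctnnb1, Cldn7 and Spint2 (142 ± 10.4 CPM per kb). Libraries overlapped for 41 of the 51 pairs of neighbours in this list, Epcam and Cldn2 among them, so their order is not separated beyond the spread.

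Mesenchymal genes were split. The 27 members in the table, of 37, included 11 in the top 10% and 6 in the lowest 25%. High members were mostly secreted or cytoskeletal: Ccn1, Spp1, Ccn2 (773, 747 and 782 CPM per kb), S100a6 (465 ± 78.3 CPM per kb), Tagln2 (255 ± 14.9) and Fn1. Vim, the intermediate filament of mesenchymal cells, was at 28.5, 58.6 and 45.5 CPM per kb, and replicate 1 was the lowest. Zeb1, a repressor of Cdh1, was at 0.585, 1.5 and 1.56 CPM per kb, and Snai1, Zeb2, Acta2 and Cdh2 had means below 1 CPM per kb. Twist1, Twist2 and Prrx1 were not among the genes of the table. Of the 23 members at a mean of at least 5 CPM, 5 were over 1.5-fold above both other libraries in replicate 2, against 3.65% of all genes, Snai2 among them (2.13, 11.5 and 3.37 CPM per kb). More of them, 7, were over 1.5-fold below both others in replicate 1, against 1.41% of all genes.

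After Clu, the highest genes for secreted products were of the matrix and its modulators. Of 14 IGF-binding and CCN proteins, 8 were in the table and 5 in the top 10%. These were Ccn1, Ccn2, Igfbp7 (303, 297 and 317 CPM per kb), Igfbp4 (317, 228 and 312 CPM per kb) and Igfbp3 (130.0, 133 and 96.1 CPM per kb), of which the last 3 bind insulin-like growth factors. Ccn5 (2.97 ± 0.978 CPM per kb), Ccn4 (0.757 ± 0.718) and Ccn3 (0.541 ± 0.223) were far below.

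Of 62 matrix genes, 49 were in the table, 12 of these in the top 10% and 22 in the lowest 25%. Thbs1, for thrombospondin, was at 895, 934 and 1237 CPM per kb and Fn1, for fibronectin, at 227, 216 and 301 CPM per kb. Npnt, an integrin ligand of basement membranes, was at 90.6, 111 and 100.1 CPM per kb. Fbln2 (45.4, 150.3 and 70.5 CPM per kb) had replicate 2 above both others, and Tinagl1 was at 78.2 ± 19.1 CPM per kb. The fibrillar collagen gene Col1a1 was at 0.656, 0.397 and 0.428 CPM per kb, while the basement membrane collagen gene Col4a1 was at 64.5, 82.7 and 72.7 CPM per kb.

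The highest chemokine genes were Cxcl1 and Cxcl5, of the neutrophil-attracting group, while other members of that group were far lower. Cxcl1, a ligand of Cxcr2, was at 354, 277 and 471 CPM per kb. Cxcl5, another such ligand, was at 229, 175 and 254 CPM per kb and did not overlap Cxcl1. Ppbp was at 9.18 ± 1.83 CPM per kb, Cxcl15 at 2.81 ± 0.84, Cxcl2 at 1.17 ± 0.348 and Cxcl3 at 0.993 ± 0.232. Cx3cl1 (84.7, 84.9 and 120.4 CPM per kb) and Cxcl16 (80.8, 85.3 and 89.4 CPM per kb), which are made as membrane-bound chemokines, overlapped each other.

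Ccl20, the ligand of Ccr6, was at 26.2, 32.2 and 42.9 CPM per kb and Cxcl17 at 14 ± 3.81 CPM per kb. Ccl2, the monocyte chemokine, was near the floor, at 0.156, 0.34 and 0.346 CPM against floors of 0.134, 0.136 and 0.0901. In all, 17 of 33 chemokines were in the table, with 4 in the top 10% and 8 in the lowest 25%. Cxcl12, Ccl5, Ccl7 and Cxcl9 were not among the genes of the table. Of the receptors for these ligands, Cxcr2, Ccr6 and Cxcr6 were not among the genes of the table.

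Cytokines included growth factors for myeloid cells. After Spp1, which is listed with them, the highest were Grn (79.4, 102 and 81.1 CPM per kb) and Mif (46.4, 90.1 and 59.2 CPM per kb), and 34.1% of the 50-base stretches of Mif occur in other genes. Csf2, which encodes the granulocyte-macrophage colony-stimulating factor, was at 43.1, 31.2 and 28.9 CPM per kb. Csf1, the macrophage growth factor, was at 14.9, 22 and 19.2 CPM per kb, below every library of Csf2. The interleukin gene Il1a was at 22.6, 24.2 and 21.2 CPM per kb, and its antagonist gene Il1rn at 11.3 ± 1.39 CPM per kb.

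Clcf1 (33.3 ± 5.99 CPM per kb), Tnfsf9 (29 ± 2.22) and Lif (17.3 ± 1.18) were of similar level to these. Il6 was at 2.16, 0.43 and 0.826 CPM, and its highest library was replicate 1. Of 51 cytokines 29 were in the table, 3 of these in the top 10% (4 without replicate 2) and 12 in the lowest 25%. Il1b, Il10, Osm and Tnfsf11 were not among the genes of the table.

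Ligands of the EGF family showed Areg and Hbegf together at the top. Areg, for amphiregulin, was at 71.4, 184 and 84.8 CPM per kb, with replicate 2 above both others. Hbegf was at 95.7, 95.4 and 117 CPM per kb and Tgfa at 30.8, 32.4 and 32.5 CPM per kb. Ereg was at 11.9 ± 1.51 CPM per kb, Btc at 3.9 ± 1.53 and Nrg1 at 2.9 ± 0.397, while Nrg2 and Egf were below 1 CPM per kb. With 8 of 11 members in the table, 2 were in the top 10% and 2 in the lowest 25%.

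Among other growth factors, Hdgf was the highest at 196, 239.9 and 189.5 CPM per kb. Vegfa, the main angiogenic factor, was at 63.5, 108 and 53.5 CPM per kb with replicate 2 the highest. Angptl4 (40.1 ± 4.94 CPM per kb), Edn1 (32.2 ± 6.91) and Manf (21.5 ± 6.68) followed, Manf being a protein released by cells with stress of the endoplasmic reticulum. Of 51 members 36 were in the table, 3 in the top 10% and 20 in the lowest 25%.

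The highest gene of the TGF-beta family list encodes a binding protein. This was Ltbp3, which holds latent TGF-beta in the matrix, at 109, 119 and 138 CPM per kb, with Nbl1 at 44.6 ± 6.77 CPM per kb, Ltbp1 at 25.3 ± 4.43 and Bmp1 at 19.1 ± 1.17. Tgfb1 itself was at 8.1, 9.42 and 8.4 CPM per kb, and Ltbp4 at 6.83 ± 2.27 CPM per kb. Of 34 members 21 were in the table, 2 in the top 10% and 11 in the lowest 25%. Of 29 WNT ligands and modulators 6 were in the table. Wnt7b, a ligand of lung epithelium, was at 51.2, 54.6 and 47.6 CPM per kb, above every library of Wnt7a (9.55 ± 1.65 CPM per kb) and Wnt5a (4.4 ± 0.667). Wnt9a, Wnt4 and Wnt11 were in the lowest 25%, at 0.182 to 1.15 CPM per kb.

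**Figure D3:**
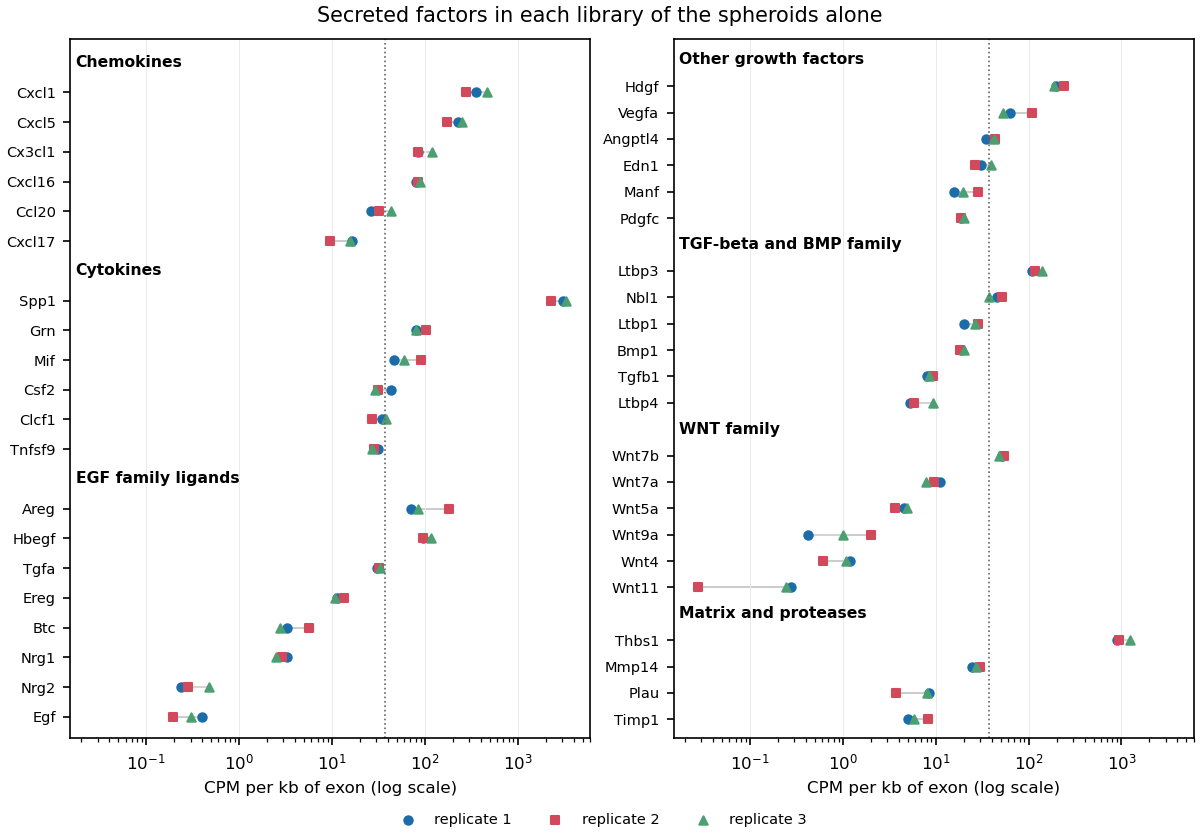
Each library's level of secreted factors by family (horizontal axis, CPM per kb of exon, log scale), with the lower edge of the top 10% dotted. Spp1 and Thbs1 lie farthest right, Cxcl1 and Cxcl5 lead the chemokines, and replicate 2 (squares) is the highest library for Areg and Vegfa.

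Protease and protease inhibitor genes ranged from high to low. Of 44 proteases 38 were in the table, with 11 in the top 10% and 13 in the lowest 25%. Their median percentile was 58.3, and 53.9 without replicate 2. They were led by Ctsd (182 ± 19.3 CPM per kb), Ctse, Prss22 (138 ± 9.92), Ctsl (87.1 ± 16.4), Plat (78.5 ± 7.42) and Adam9 (78.5 ± 3.8). Ctsd shares 32.4% of its 50-base stretches with a predicted gene. Of the matrix metalloproteinases, Mmp15 (54.7 ± 11.4 CPM per kb) and Mmp14 (27.2 ± 2.66) were the highest, and Mmp9 was at 0.0441, 0.0448 and 0.242 CPM per kb. Of 33 inhibitors 24 were in the table, with 7 in the top 10%, 10 in the lowest 25% and a median percentile of 50.5. Wfdc2, a secreted inhibitor of the airway, was at 349.5, 414 and 348 CPM per kb. Spint2 (142 ± 10.4 CPM per kb) and Spint1 (136 ± 19.8), which inhibit membrane serine proteases, Timp2 (137 ± 10.8), Cst3 (90.7 ± 8.94) and Cstb (90.6 ± 14.3) followed.

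Of 47 complement, acute-phase and antimicrobial genes, 25 were in the table and 6 in the top 10%. After Clu they were S100a11 (432 ± 84.3 CPM per kb), S100a10 (176 ± 26.5), Lbp (149 ± 58.6), S100a14 (137 ± 15) and Lgals9 (72.3 ± 13.7). Lcn2, an iron-scavenging protein of inflamed epithelium, was at 14.1, 9.95 and 9.31 CPM per kb. Lbp, which presents bacterial lipopolysaccharide to Cd14, was at 192, 82 and 172 CPM per kb, with replicate 2 the lowest. Replicate 2 was over 1.5-fold below both others for 7 of the 17 members at a mean of at least 5 CPM, against 4.62% of all genes.

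Receptor tyrosine kinases were led by ephrin receptors and the ERBB2 and ERBB3 pair. Epha2 was at 72.4, 79.4 and 81.8 CPM per kb and Ephb4 at 62.6, 50.5 and 67.2 CPM per kb. Erbb2 (chr11:98412470-98437716), which has no ligand of its own, was at 58, 42.4 and 52.6 CPM per kb. Erbb3, its partner for neuregulins, was at 49.3, 37.9 and 52.5 CPM per kb and overlapped Erbb2. Egfr (chr11:16752203-16918158), the receptor of Areg, Hbegf and Tgfa, was in the lowest 25% at 0.806, 0.634 and 0.765 CPM per kb. All 3 of its libraries lay below every library of Erbb2 and Erbb3.

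Ddr1, a collagen receptor, was at 48.2 ± 1.61 CPM per kb, and Axl was at 18.4, 50 and 42.7 CPM per kb with replicate 1 the lowest. Met, the receptor of hepatocyte growth factor, was at 25.7, 28.8 and 36.6 CPM per kb, and its ligand gene Hgf was in the lowest 25%. Fgfr3 was at 5.35, 1.75 and 5.18 CPM per kb, and replicate 2 did not overlap the others. Of 57 members 39 were in the table, 5 in the top 10% and 14 in the lowest 25%. Erbb4, Fgfr1, Kit and Alk were not among the genes of the table.

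Receptors for cytokines were mostly low, with 15 of the 34 members in the table in the lowest 25% and a median percentile of 34.8. Ifngr1, a chain of the interferon gamma receptor, was at 61, 53.7 and 62.6 CPM per kb and was the only member of 34 in the table (of 44) in the top 10%. Its partner Ifngr2 was at 25.5 ± 3.1 CPM per kb. Il1r1, the receptor of Il1a, was at 30.8, 21.1 and 29 CPM per kb. Il4ra (23 ± 0.854 CPM per kb), Il17rc (21.2 ± 0.577) and Ifnar1 (19.2 ± 2.52) followed. For the myeloid factors made by the cells, Csf2ra was at 8.84, 9.42 and 8.29 CPM per kb, and Csf1r was in the lowest 25% at 0.39, 0.655 and 0.523 CPM per kb.

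Of 21 TNF receptors 17 were in the table and 4 in the top 10%. Tnfrsf12a, the receptor of TWEAK, was at 114, 215 and 142 CPM per kb. Ltbr (82.5 ± 10.1 CPM per kb), Tnfrsf21 (74.7 ± 1.62) and Tnfrsf1a (72.5 ± 2.22) came next, and Tnfrsf1b (30.7 ± 6.23) and Tnfrsf23 (29.9 ± 9.27) after them. The median percentile of this list was 37.5, and 45.9 without replicate 2.

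Among 11 pattern recognition receptors in the table, of 20, Cd14 stood alone in the top 10% at 123, 60.4 and 104 CPM per kb. Tlr4 (14.9 ± 2.62 CPM per kb), its partner in sensing lipopolysaccharide, Tlr3 (13.7 ± 0.311) and Ly96 (5.97 ± 0.606) were lower. Aim2, Ifih1 and Ddx58 lay between 2.12 and 3.69 CPM per kb, and Tmem173, Cgas, Nod1 and Tlr2 below 2 CPM per kb.

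G protein-coupled receptors were led by Gprc5a (447, 465 and 442 CPM per kb), an orphan receptor of lung epithelium. F2r, the thrombin receptor, was at 167, 149 and 201 CPM per kb and Adgrg1, an adhesion receptor, at 111, 97.9 and 108 CPM per kb. Gprc5c (34.1 ± 6.91 CPM per kb), Adgrl2 (30.5 ± 4.89) and the prostaglandin receptor gene Ptger4 (26.2 ± 3.26) followed. Of 77 members 41 were in the table, 3 in the top 10% (4 without replicate 2) and 19 in the lowest 25%.

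TGF-beta and BMP receptors were all below the top 10%, with 15 of 21 in the table. Neo1 (35.3 ± 7.36 CPM per kb), Tgfbr1 (27.9 ± 3.26), Bmpr1a (26.2 ± 0.819) and Acvr2a (18.3 ± 2.09) were the highest, with Acvr1 at 15.6 ± 1.22. Tgfbr2, the chain that binds TGF-beta, was at 15.9, 13.6 and 18.2 CPM per kb. Of 49 Notch, WNT, Hedgehog and guidance genes 40 were in the table and 4 in the top 10%. These were Plxnb2 (106 ± 7.21 CPM per kb), a semaphorin receptor, Efnb2 (60.4 ± 4.7) and Efna1 (50 ± 1.66), which encode ephrins, and the Notch ligand gene Jag1 (58 ± 10.4). Plxna1 (30.7 ± 4.3) and Nrp1 (29.6 ± 8.03) followed.

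Integrins were led by subunits that bind laminin and other matrix proteins. Itgb1, the common beta subunit, was at 182, 235 and 206 CPM per kb and Itga3, a laminin-binding chain, at 71.9, 91.9 and 63.6 CPM per kb. Itgb5 (69.6 ± 8.35 CPM per kb), Itgb4 (35.4 ± 1.75), Itga2 (34.2 ± 2.4) and Itga6 (30.8 ± 1.05) followed. The leukocyte subunits Itgb2, Itgam, Itgal and Itgax were in the lowest 25%, which held 12 of the 22 integrins in the table.

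Other surface proteins were often high. Of 59 listed 52 were in the table and 26 in the top 10%, or 25 without replicate 2. The median percentile was 88.1, and 86.5 without replicate 2. F3, the tissue factor that starts coagulation, was at 609, 589 and 746 CPM per kb, and Muc1 overlapped it. Sdc1, a heparan sulphate proteoglycan of epithelium, was at 459, 408 and 375 CPM per kb, Bsg at 360.2 ± 26.3 CPM per kb and Cd9 at 322 ± 25.3. Cd44, the hyaluronan receptor, was at 74.3, 60.6 and 69.2 CPM per kb.

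Genes for the immune ligands a tumour cell shows to leukocytes differed by class. Cd24a, a ligand that restrains phagocytes, was at 330.4, 218 and 269.6 CPM per kb, and Cd47, another such ligand, at 41.3, 38.5 and 40.2 CPM per kb. B2m, the light chain of MHC class I, was at 194, 215 and 232 CPM per kb, and H2-K1, a heavy chain, at 40.8, 38.3 and 36.8 CPM per kb. Nectin2 (98 ± 10.8 CPM per kb), Tapbp (65.5 ± 11) and Vcam1 (48.4 ± 14.8) were also in the top 10%.

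Cd274, which encodes PD-L1, was in the lowest 25% at 1.3, 1.29 and 1.46 CPM per kb. The MHC class II genes H2-Aa, H2-Ab1 and H2-Eb1 were in the lowest 25% too. In all, 32 of 46 members were in the table, 8 in the top 10% and 13 in the lowest 25%.

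**Figure D4:**
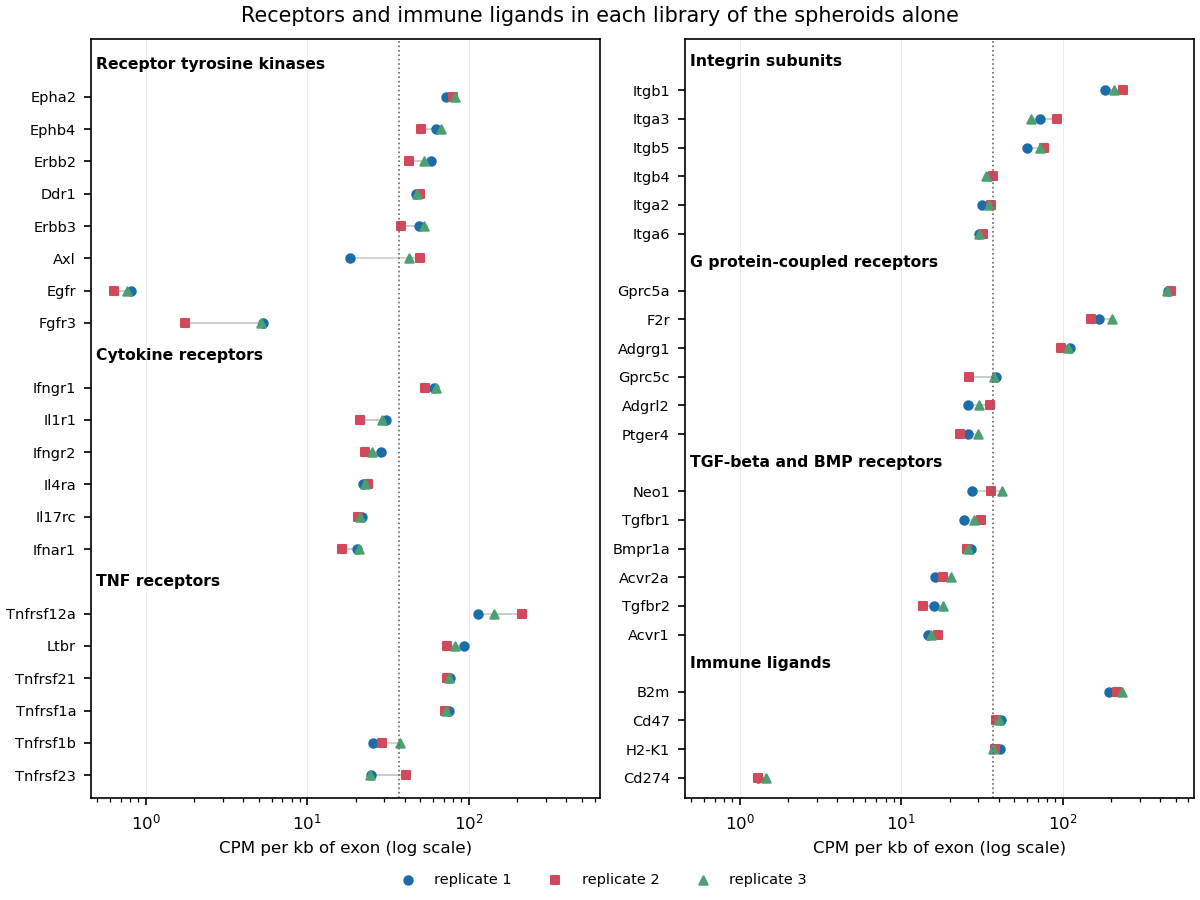
Each library's level of receptor and immune ligand genes by family (horizontal axis, CPM per kb of exon, log scale), with the lower edge of the top 10% dotted. Not all members of each family are drawn. Among those drawn, Egfr and Cd274 lie at the far left of their families and Gprc5a and Tnfrsf12a at the right of theirs. The lowest 25% held 14 receptor tyrosine kinases and 13 immune ligand genes, so the far-left places reflect which members were drawn. Replicate 2 (squares) is apart for Fgfr3.

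Genes of the RAS pathway included high feedback members in the sorted cells, and their levels before dissociation were not measured. Of 35 pathway genes, all in the table, 12 were in the top 10% and the median percentile was 77.4. Dusp5 (978, 681 and 1023 CPM per kb), Dusp6 (246, 211 and 285 CPM per kb) and Dusp4 (177, 246 and 199.7 CPM per kb), phosphatases induced by and acting on MAP kinases, were among the 6 highest. Myc was at 186, 340.5 and 266 CPM per kb, Spry1 at 169 ± 20.1 CPM per kb and Mapk3 at 70.3 ± 5.88.

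Trp53 (chr11:69580359-69591873) was at 1.32, 2.07 and 1.39 CPM per kb, percentile 22.3, with 5.33, 8.36 and 5.63 CPM. The labels give no allele, and reads per gene do not tell which exons they came from. Of 24 genes in the p53 list with a row, 7 were in the top 10%, led by Btg2 (1027 ± 220.0 CPM per kb), Plk2 (389 ± 30.8), Perp (86.8 ± 1.71), Gadd45a (57 ± 7.3), Cdkn2b (52.3 ± 8.36) and Trp53inp1 (46.7 ± 5.58). A place in this list does not show that a gene, such as Cdkn2b, is induced by p53. Several of these are induced without p53, and Btg2 is in the immediate early list as well. Cdkn1a, the best known target, was at 18.1, 32.1 and 19.6 CPM per kb, and Mdm2 at 20 ± 1.22 CPM per kb.

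Proliferation genes were near the middle of the ranking, with all 32 in the table, 2 in the top 10%, 0 in the lowest 25% and a median percentile of 45.3. Mcm6 (43.2 ± 3.86 CPM per kb) and Mcm4 (37.3 ± 1.41), of the replicative helicase, led with Ccnd1 (29.4 ± 2.24), Pcna (26.3 ± 3.41), Mcm7 (25 ± 5.34) and Mcm2 (21.2 ± 0.862). Mki67 was at 2.07, 3.12 and 2.09 CPM per kb. Replicate 2 was over 1.5-fold above both others for 6 of the 31 members at a mean of at least 5 CPM, against 3.65% of all genes, Rrm2 among them (6.34, 18.1 and 8.51 CPM per kb). In bulk RNA, fewer cells in cycle and less RNA of a gene per cell cannot be told apart.

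Markers of other cell types were low, as far as the table lists them. Of 30 leukocyte, macrophage and monocyte markers 20 were in the table, 16 of these in the lowest 25%. Ptprc, the gene for the pan-leukocyte protein CD45, was at 3.46, 1.43 and 0.916 CPM. The exceptions were Cd14, Lyz2 (5.17, 19.8 and 25.9 CPM per kb), Cd53 (18.3, 13 and 14.3 CPM per kb) and Chil3 (1.87, 7.78 and 8.92 CPM per kb). Adgre1, Marco and the C1q genes were not among the genes of the table. Lyz2 and Chil3 were lowest in replicate 1, and 15.4% and 26.9% of their 50-base stretches occur in related genes.

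Of 23 lymphocyte and granulocyte markers 1 was in the table, of 12 endothelial markers 4, of 14 fibroblast markers 3 and of 6 erythroid markers 0. All 8 with a row were in the lowest 25%, and each had a mean below 1 CPM per kb. Summed over the 28 markers of the 5 lists with a row, the level was 296, 199 and 301 CPM, of which Cd14 alone made 213, 105 and 180.1 CPM. The part of other cells in any result above was not tested.

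The spread over the libraries was small for most genes. Over the 9932 genes at a mean of at least 5 CPM, the median ratio of the highest to the lowest library was 1.27 and the median coefficient of variation 12.4%. The ratio was over 2 for 506 genes, or 5.09%. Replicate 2 was the library farthest from the others for 379 of these, replicate 1 for 92 and replicate 3 for 35. Without replicate 2 the count was 63, without replicate 1 it was 276, and without replicate 3 it was 400. Within the 43 lists, 718 of 939 pairs of neighbours in the order of mean CPM per kb had overlapping libraries, so most neighbours were not separated beyond the spread.

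The 12 genes with the largest ratio at a mean of at least 10 CPM fell into 3 patterns. Ngfr, for a neurotrophin receptor, had 31, 2.02 and 8.34 CPM, and replicate 1 was the highest. The 5 predicted genes among them share sequence with each other (Gm10722, Gm21738, Gm10800, Gm10717 and Gm10801) and were also highest in replicate 1. Gm10800 had 1268, 182 and 188 CPM. Trib3 (44.8, 231 and 25.7 CPM), Slc7a11 (75.6, 434 and 88.1 CPM), Ptprn (3.77, 20.7 and 6.65 CPM) and Mmp3 (12.5, 67.4 and 13.4 CPM) were highest in replicate 2. Tm4sf20 (17.4, 2.69 and 14.7 CPM) and Cfi (31.9, 5.37 and 23.3 CPM) were lowest in it.

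Replicate 2 was over 1.5-fold above both others for 363 genes, or 3.65%, and over 1.5-fold below both for 459, or 4.62%. Its high genes included many known to be induced when amino acids are short or the endoplasmic reticulum is stressed. Such cells translate the factor Atf4, which binds composite C/EBP-ATF elements and raises genes for amino acid transport, serine and asparagine synthesis and tRNA charging. A list of 41 such genes was put together after the values were seen, so its counts describe a choice and support nothing. Of 38 members at a mean of at least 5 CPM, 26 were over 1.5-fold above both others in replicate 2. Only 1, Cbs, was over 1.5-fold below both.

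Trib3, a pseudokinase of this response, was 6.81 times the geometric mean of the other libraries in replicate 2, and Slc7a11, the cystine transporter, 5.32 times. Mthfd2, a folate enzyme of mitochondria, had 47.7, 157 and 31.8 CPM, 4.03 times the others. Asns, asparagine synthetase, had 145, 379 and 105 CPM and was 3.06 times the others. Chac1 (22, 57.4 and 23.8 CPM), which degrades glutathione, and Pycr1 (10.1, 22.7 and 5.57 CPM), of proline synthesis, were 2.51 and 3.02 times the others. Atf4 itself, which is known to be controlled at translation, differed less, at 400.1, 586 and 384 CPM.

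The core letters of the C/EBP-ATF element, TGATGNAA on either strand, were searched in the 250 bases before the gene start in RefSeq promoters of GRCm38.p6. Of 9775 genes of the table with an entry, 246 held a match, or 2.52%. Of 33 listed amino acid response genes with an entry, 10 held one. The list was made of genes known for this response, after the values were seen, so nothing is read from that count. Trib3 (6.81 times the others in replicate 2) and Mthfd2 (4.03 times) held no match. Nupr1 (1.30 times) and Vldlr (1.17 times) held one. A match is a description of letters, not a site of binding. The 4 sequences below are those of listed genes with a match, a mean of at least 10 CPM and the largest folds in replicate 2, and they are shown because these genes were high together in that library. Each reads 5′ to 3′ on the strand of the gene and ends at the base before its start. Capitals mark the match.
Slc7a11 (chr3:50443614-50443863, minus strand): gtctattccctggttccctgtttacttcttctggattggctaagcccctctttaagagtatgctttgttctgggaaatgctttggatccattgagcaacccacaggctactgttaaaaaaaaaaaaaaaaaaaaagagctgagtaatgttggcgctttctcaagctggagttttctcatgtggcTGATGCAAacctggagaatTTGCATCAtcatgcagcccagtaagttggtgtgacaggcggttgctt
Asns (chr6:7693210-7693459, minus strand): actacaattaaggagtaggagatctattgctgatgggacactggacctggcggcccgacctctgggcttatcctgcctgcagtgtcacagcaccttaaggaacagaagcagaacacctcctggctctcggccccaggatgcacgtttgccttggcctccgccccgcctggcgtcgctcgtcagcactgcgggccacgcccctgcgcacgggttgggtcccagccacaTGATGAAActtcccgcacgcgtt
Pycr1 (chr11:120643749-120643998, minus strand): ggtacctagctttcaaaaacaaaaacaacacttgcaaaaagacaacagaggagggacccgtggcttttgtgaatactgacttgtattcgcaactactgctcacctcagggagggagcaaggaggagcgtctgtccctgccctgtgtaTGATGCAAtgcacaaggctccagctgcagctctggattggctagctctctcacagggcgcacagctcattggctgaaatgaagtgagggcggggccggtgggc
Chac1 (chr2:119350992-119351241, plus strand): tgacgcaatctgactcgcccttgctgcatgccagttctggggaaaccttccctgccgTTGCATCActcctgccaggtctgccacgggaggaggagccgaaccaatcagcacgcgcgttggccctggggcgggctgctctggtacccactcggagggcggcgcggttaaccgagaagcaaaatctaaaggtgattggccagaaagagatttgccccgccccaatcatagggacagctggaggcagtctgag

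Against these high genes, replicate 2 was over 1.5-fold below both others for 8 of 30 mucosal genes and 7 of 17 hepatocyte genes. These counts are at a mean of at least 5 CPM, beside the 4.62% of all genes. Hp, for haptoglobin, had 41, 7.95 and 38.8 CPM and Lbp 927, 396 and 832 CPM. Hnf4a had 298, 199.8 and 326 CPM. For each of these, replicates 1 and 3 lay closer to each other than to replicate 2. Without replicate 2 the number of mucosal genes in the top 10% was 16 in place of 15, and of hepatocyte genes 5 in place of 4. The share of reads in ribosomal protein genes, the number of genes with 0 reads and the summed markers of other cells also differed in replicate 2, as given above, and their part in these differences was not tested.

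**Figure D5:**
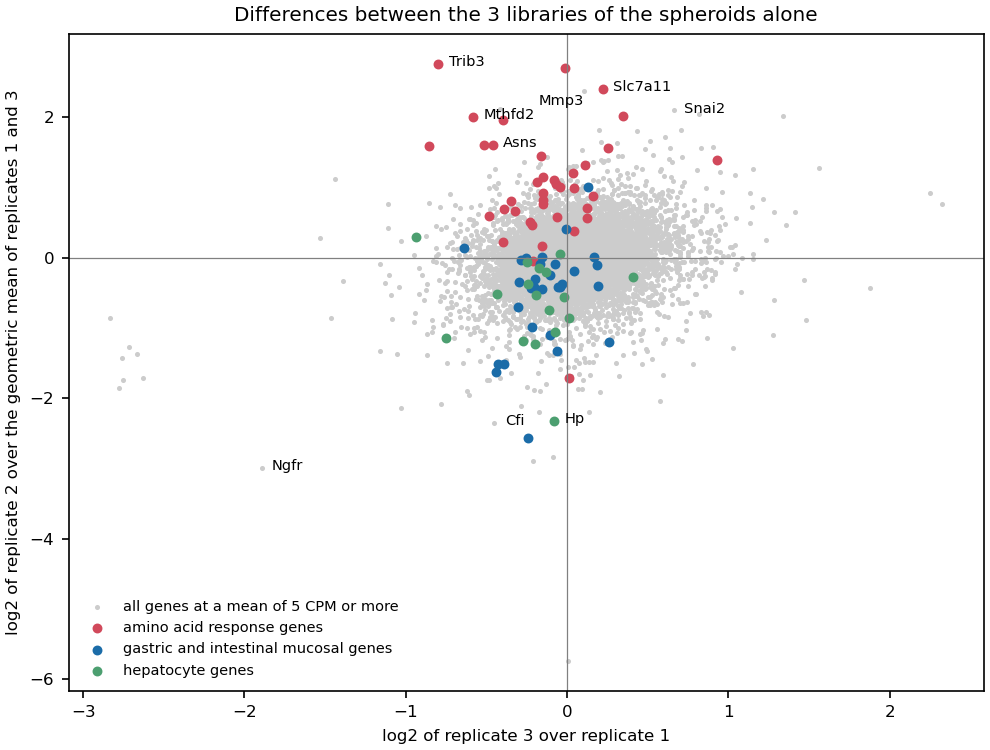
Difference between the libraries for the 9932 genes at a mean of at least 5 CPM, with log2 of replicate 3 over replicate 1 on the horizontal axis and log2 of replicate 2 over the geometric mean of the others on the vertical axis. Most amino acid response genes, a list chosen after seeing the values, lie above 0 on the vertical axis, with Trib3 and Slc7a11 among the highest, and most of the mucosal and hepatocyte genes lie below it, with Hp among the lowest.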

How the data were processed

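RNA of sorted KP-GFP cells was measured in 9 libraries, of which the 3 of the spheroids grown alone are described. The labels gave each sample's group and number. STAR 2.5, edgeR and the build mm10 appear in the submitters' processing notes. How reads were counted, and on which annotation, is not given in the sources used here. In the deposited file, each gene has a signal that the authors scaled between libraries. Each such signal equals whole reads plus 0.5, expressed as CPM of a scaled library size. All 37017 values (100%) of these libraries came out whole at a tolerance of 1e-06. Strand is not stated to be kept, so a gene and an antisense partner cannot be told apart. The authors' tables of their own comparisons were not used.

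The group of tumour cells alone, its members and the gene lists were chosen with earlier results of these data known. Values were divided by the exon length (all annotated exons joined) in GENCODE M21 of GRCm38. Of 12339 symbols, 12255 matched 1 annotated gene, 62 none and 22 more than 1. Named were the 20 highest genes by CPM per kb, the 10 highest by CPM, the 6 highest members of each list (all of a list with 12 or fewer in the table), lineage transcription factors, the 12 genes with the largest ratio between libraries at a mean of at least 10 CPM, and a set that includes Trp53, Egfr and Ptprc. A few genes that this rule names are not reported here. Mitochondrially encoded, ribosomal protein and predicted genes were passed over in the first 2 rankings. A ratio between libraries over 2 was counted at a mean of at least 5 CPM. The 0.5 read makes ratios of low genes smaller. Of 953 genes checked, 74 share at least 10% of their 50-base stretches with another gene, and their reads may have been divided between copies. Alternatives left out each library, removed the scaling between libraries, used the median or the longest transcript, and moved the minimum values. The steps were tested on simulated data with replicate 2 changed, where 96% of 50 genes changed 2-fold among 12339 were found. The simulated libraries had the same small spread for every gene and no library-wide difference, unlike replicate 2 here. That rate therefore does not carry over to the counts for replicate 2. Computation used Python 3.11.15, pandas 2.3.3 and numpy 2.4.6.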

Additional observations from a re-analysis of the deposited data

How the results depend on the processing

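Of the 100 highest genes by CPM per kb, 96 to 98 were also among the 100 highest when a library was left out, and 89 with the length of the longest transcript. The number of listed genes in the top 10% was 205 and ranged from 199 to 209 over all 8 alternatives run for it. The share of the 100 highest genes was 21.5% and ranged from 20.6% to 22.1%. The lower end came from leaving out mitochondrially encoded genes, Lars2 and predicted genes, an alternative chosen after seeing the data. The number of neighbouring pairs with overlapping libraries was 718, and 510 to 645 with a library left out, also chosen after seeing the data. The summed markers of other cells were 265 CPM, and 248 to 298 CPM in the same way.

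The number of genes with a ratio over 2 depended on the choices made. It was 506, and 63 to 400 with a library left out, the lowest without replicate 2, and a ratio of fewer libraries can only be smaller or equal. It was 2008 with no minimum mean and 170 with a minimum of 20. It was 403 with a pseudocount of 1 and 501 without the scaling between libraries. A median percentile moved by up to 19.1 with no length correction, for alveolar type 2 markers, which came to 47.9. In that setting 26 list medians moved by more than their SD over the libraries and 15 did not. With the longest transcript, 15 moved and 26 did not. The median of hepatocyte genes, 56.5 as reported, came to 38.4 with no length correction and 48.2 with the longest transcript. For keratins, a minimum mean of 1 CPM removed low members and gave 97.8. No paired analysis was possible because 1 group is described and no test was made. Depth limits genes near 3 reads, such as Ccl2, and with 3 libraries an SD is itself uncertain.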

Other observations

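The genes that follow are outside the naming rule and were singled out after their values were seen. Papln, for a matrix protein, had 189, 3 and 282 reads in replicates 1, 2 and 3. Prelp, a leucine-rich matrix proteoglycan, was highest in replicate 3, at 3.99, 5.68 and 14.7 CPM. Lgr5, a receptor that marks stem cells of the gut, was at 1.15, 0.360 and 1.16 CPM per kb.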
